A study of Homo sapiens with 6 samples.

Results

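The aldehyde dehydrogenases described here are 10 genes, ALDH1A1, ALDH1A2, ALDH1A3, ALDH1B1, ALDH1L1, ALDH1L2, ALDH2, ALDH3A1, ALDH3A2 and ALDH7A1, taken by gene symbol from a table of 24489 rows. All 10 were found. They were measured by RNA-seq in LN229, an established human glioblastoma cell line, in 3 libraries of cells transduced with an empty vector and 3 libraries of cells transduced to overexpress LACTB, a mitochondrial serine beta-lactamase-like protein. All libraries come from the same line and all cells were transduced, so no untransduced cells are compared. The labels do not say whether either group is a clone or a pool, what promoter drives LACTB, or whether the 3 libraries of a group are separate cultures, so the p-values speak only of variation among these libraries, possibly technical.

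Aldehyde dehydrogenases oxidise aldehydes to carboxylic acids with NAD or NADP, and the family members differ in substrate and in compartment. ALDH1A1, ALDH1A2 and ALDH1A3 make retinoic acid from retinal in the cytosol, ALDH2 and ALDH1B1 clear acetaldehyde and other small aldehydes in mitochondria, and ALDH3A2 oxidises long-chain fatty aldehydes at the endoplasmic reticulum. ALDH7A1 acts in lysine breakdown, and ALDH1L1 and ALDH1L2 oxidise a formyl folate. In glioma research, high aldehyde dehydrogenase activity and ALDH1A3 in particular are used to mark stem-like and mesenchymal tumour cells, and ALDH1L1 is a marker of astrocytes.

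The values are normalized read counts, and the columns summed to 38049107 or more for vector and to 35683521 or less for LACTB libraries. Differences are LACTB minus vector on the scale of log2(value + 1), from limma across the 12939 genes that averaged 1 CPM or more, which is 37.7 normalized counts. Adjusted p is limma's, with Benjamini-Hochberg adjustment over all of these genes, and a gene was called at an adjusted p under 0.05. LACTB itself stood at 458, 515 and 393 in the vector libraries and at 4268, 4078 and 4203 in the LACTB libraries. All 10 glial and glioma markers averaged 1 CPM or more over the 6 libraries, but SOX9 stood at only 8.57 to 15.4 normalized counts in vector and 51.4 to 80.3 in LACTB libraries. Their sum overlapped between the groups, at 127459 to 143496 and 130349 to 131834, while VIM, CD44, GFAP, SOX2 and SOX9 were higher and S100B, OLIG2 and FABP7 lower in every LACTB library. The sums of the 6 other marker lists did not overlap between the groups. Melanocyte markers summed to 3116 to 3972 in vector and 601 to 769 in LACTB libraries, with PMEL, DCT, MITF and TYR lower, TYR at 0 in all 3 LACTB libraries, TYRP1 higher (0.0601 to 12.5 against 18.0 to 32.4) and MLANA overlapping, and 3 of the 6 averaged 1 CPM. Sums were also lower with LACTB for epithelial (5866 to 7174 against 2781 to 3263), neuron (1574 to 1642 against 1224 to 1346) and endothelial markers (236 to 305 against 170 to 197). They were higher for fibroblast (1132 to 1342 against 1801 to 1861) and immune markers (1047 to 1175 against 1596 to 1698). The fibroblast genes were split, with LUM (means 304 and 1059) and COL1A1 higher and COL1A2 (220 and 36.4) lower. PDGFRA, PDGFRB and DCN overlapped. Among epithelial markers only KRT8 and KRT18 were apart, both lower, and among endothelial markers only KDR (means 69.9 and 4.86). Every neuron marker overlapped between the groups. Of the 6 immune genes only CD68 averaged 1 CPM, and PTPRC reached at most 14.6 and CD3E 4.33. The part of these markers in the differences below was not tested.

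Of the 10 genes, 7 were abundant enough to be tested. ALDH3A2 rose, ALDH2, ALDH1A1, ALDH7A1, ALDH1B1 and ALDH1A3 fell, and ALDH1L2 did not pass. So 6 of 7 were called, against 51.9% of all genes tested, with 5 of 7 lower against 24.6% and 1 of 7 higher against 27.4%. The median difference was -0.45, and 0.05 over all genes tested. ALDH2 and ALDH1A1 reached the minimum level only through their vector libraries, so their presence among the tested genes already favours a fall. ALDH3A1, ALDH1A2 and ALDH1L1 lay under the minimum. The groups did not overlap for 7 of the 10 genes, 5 lower and 2 higher, and for 6 of the 7 tested genes, against 59.7% of all genes tested.

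**Figure D1:**
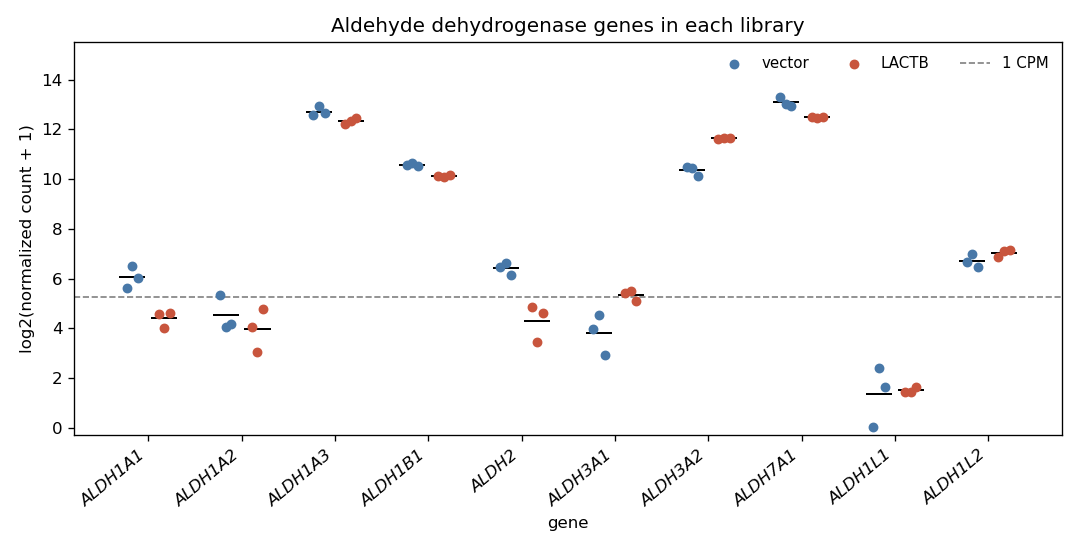
Each point is 1 library, with log2(normalized count + 1) on the y axis and the 10 genes on the x axis, vector in blue and LACTB in red. Short black lines are group means and the dashed line marks 1 CPM. The 3 LACTB points of ALDH3A2 and of ALDH3A1 lie above all their vector points, and those of ALDH1A1, ALDH1A3, ALDH1B1, ALDH2 and ALDH7A1 lie below them.

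The sequences upstream of ALDH3A2, the tested gene that rose, and of ALDH1A1 and ALDH1B1, which fell, are shown as examples of genes that moved in opposite directions. Of the 10 genes, 7 had an entry in the RefSeq promoter table (GRCh38.p14), and the 250 bases before the listed start were searched on both strands for 6 motifs. These were TATAAA (the TATA box), CCAAT (the CCAAT box), GGGCGG (the GC box), CACGTG (an E-box), TGACNNNGC (the core of the antioxidant response element) and AGGTCA (a nuclear receptor core motif). Matches are in capitals, each sequence runs 5′ to 3′ on the gene's strand, and bases that GENCODE release 29 gives as UTR are left out.
ALDH3A2, chr17:19647886-19648135, plus strand, higher with LACTB: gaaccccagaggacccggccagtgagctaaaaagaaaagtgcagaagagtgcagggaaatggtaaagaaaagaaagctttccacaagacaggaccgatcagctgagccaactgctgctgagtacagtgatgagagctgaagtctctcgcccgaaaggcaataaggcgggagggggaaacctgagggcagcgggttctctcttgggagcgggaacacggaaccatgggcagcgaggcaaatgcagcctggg
ALDH1A1, chr9:72953057-72953303, minus strand, lower with LACTB: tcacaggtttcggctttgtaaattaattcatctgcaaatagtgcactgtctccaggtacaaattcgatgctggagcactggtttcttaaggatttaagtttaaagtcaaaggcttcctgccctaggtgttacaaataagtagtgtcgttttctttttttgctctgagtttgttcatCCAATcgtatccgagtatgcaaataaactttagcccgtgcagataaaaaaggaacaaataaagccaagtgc
ALDH1B1, chr9:38392452-38392663, plus strand, lower with LACTB: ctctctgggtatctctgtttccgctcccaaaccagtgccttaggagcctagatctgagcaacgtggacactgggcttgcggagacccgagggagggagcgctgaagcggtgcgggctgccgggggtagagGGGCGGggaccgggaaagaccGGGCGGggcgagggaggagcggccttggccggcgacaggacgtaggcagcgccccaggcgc
The ALDH3A2 sequence held no match to any of the 6 motifs. The ALDH1A1 sequence was the poorest of the 7 in GC, at 38.4% with 6 CpG sites, and held a CCAAT box 74 to 70 bases before the start, while the ALDH1B1 window had 70.4% GC, 23 CpG sites, a pair of GC boxes and, among the bases not printed, a CCAAT box 26 to 22 bases before the start. The ALDH3A2 window had 55.6% GC and 9 CpG sites, and the median over all 35116 windows of this length was 58% and 11. A GC box was found in 5 of the 7 windows and in 42.6% of all windows, and a CCAAT box in 5 of the 7 and in 32.0%. A TATA box and a nuclear receptor core motif were each found in 1 of the 7, that of ALDH1L1, and in 10.7% and 12.1% of all windows. Neither the E-box nor the antioxidant response element core was found in the 7 windows, and these were present in 6.34% and 10.9% of all windows. Overlapping GC boxes count as separate matches in the search. The ALDH1A1 window lies inside the full span that GENCODE gives this gene, before the start that RefSeq lists. A match is a description of letters and not a binding site.

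Among the retinal-oxidising enzymes, ALDH1A3 (chromosome 15, 100877714 to 100916626, plus strand, GRCh38) carried nearly all of the transcript. With vector it stood at 6110, 7847 and 6393 normalized counts, and with LACTB at 4705, 5169 and 5659. All 3 LACTB values were below the lowest vector value, and the means were 6783 ± 932 and 5178 ± 477 (SD, n = 3 each). LACTB minus vector was -0.39 on the log2 scale (SE 0.12, limma adjusted p = 0.010). The gene missed the threshold when vector library 2 (-0.28, adjusted p = 0.0502) or LACTB library 1 (-0.32, adjusted p = 0.072) was left out, with quantile normalization (-0.23, adjusted p = 0.12) and with equal column totals (-0.19, adjusted p = 0.21).

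ALDH1A1 (chromosome 9, 72900662 to 73080442, minus strand), the isoform most used as a stem cell marker, was low and fell further. It stood at 48.2, 90.6 and 64.9 in the vector libraries and at 22.7, 15.3 and 23.2 in the LACTB libraries. The groups did not overlap, with means of 67.9 ± 21.3 and 20.4 ± 4.43 (SD, n = 3 each). LACTB minus vector was -1.66 on the log2 scale (SE 0.35, limma adjusted p = 0.00044), and it was -0.85 with a pseudocount of 1 CPM (adjusted p = 0.00045), which shrinks low genes by construction. ALDH1A2 (chromosome 15, 57953424 to 58497866, minus strand), the enzyme of the early embryo, stood at 39.1, 15.8 and 17.2 in the vector libraries and at 15.6, 7.36 and 26.2 in the LACTB libraries. The groups overlapped and the gene was under the minimum level. Without the minimum its log2 difference was -0.57 (limma adjusted p = 0.46). In all 6 libraries ALDH1A3 per kilobase of transcript was far above ALDH1A1 and ALDH1A2, at 1729 ± 238, 32.2 ± 10.1 and 5.86 ± 3.19 normalized counts per kilobase in vector cells (SD, n = 3). With LACTB these were 1319 ± 122, 9.68 ± 2.10 and 4.001 ± 2.31.

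The mitochondrial pair differed widely in level and both fell. ALDH2 (chromosome 12, 111766887 to 111817529, plus strand), the main enzyme of acetaldehyde clearance in the body, was scarce in these cells. It stood at 88.4, 97.5 and 69.3 in the vector libraries and at 28.2, 9.90 and 23.2 in the LACTB libraries. Every LACTB value was below every vector value, and the means were 85.1 ± 14.4 and 20.4 ± 9.45 (SD, n = 3 each). LACTB minus vector was -2.11 on the log2 scale (SE 0.37, limma adjusted p = 6.5e-05), and -1.09 with a pseudocount of 1 CPM (adjusted p = 2.6e-05). Calls lower by 2-fold or more made up 4.48% of all genes tested, and ALDH2 and ALDH1A1 were among them. ALDH1B1 (chromosome 9, 38392664 to 38398661, plus strand), a near relative of ALDH2, stood at 1532, 1591 and 1480 in the vector libraries and at 1122, 1098 and 1137 in the LACTB libraries. Its groups were tight and apart, with means of 1534 ± 55.6 and 1119 ± 19.4 (SD, n = 3 each). LACTB minus vector was -0.45 on the log2 scale (SE 0.12, limma adjusted p = 0.0029). It was -0.26 with equal column totals, where the call was lost (adjusted p = 0.079), and -0.24 with transcript length and GC removed (adjusted p = 0.036).

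ALDH3A2 (chromosome 17, 19648136 to 19677598, plus strand), the fatty aldehyde dehydrogenase whose loss causes Sjögren-Larsson syndrome, was the gene that rose. With vector it stood at 1444, 1407 and 1115 normalized counts, and with LACTB at 3168, 3252 and 3254. The groups were far apart, with means of 1322 ± 180 and 3225 ± 49.3 (SD, n = 3 each), and their ratio was 2.44. LACTB minus vector was 1.30 on the log2 scale (SE 0.12, limma adjusted p = 2.1e-08), and calls higher by 2-fold or more made up 6.34% of all genes tested. It ranged from 1.16 to 1.49 over 16 alternatives and was called in each. ALDH3A1 (chromosome 17, 19737984 to 19748943, minus strand), an enzyme of aromatic and medium-chain aldehydes known from the cornea, lies 60385 bases beyond ALDH3A2. It stood at 14.9, 21.9 and 6.55 in the vector libraries and at 41.7, 44.2 and 32.9 in the LACTB libraries. All 3 LACTB values were above all vector values, and the means were 14.5 ± 7.69 and 39.6 ± 5.91 (SD, n = 3 each). It was under the minimum level. Without the minimum the log2 difference was 1.53 (limma adjusted p = 0.0053), in a fit where 29.2% of 24480 genes were called. Of 11 other tested genes within 1 Mb of ALDH3A2, 4 rose, 1 fell and 6 did not pass (median -0.03).

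ALDH7A1 (chromosome 5, 126531200 to 126595418, minus strand) oxidises the semialdehyde formed from lysine, and its loss causes pyridoxine-dependent epilepsy. It stood at 10223, 8249 and 7948 in the vector libraries and at 5806, 5707 and 5854 in the LACTB libraries. The LACTB values were close together and all below the vector values, with means of 8807 ± 1236 and 5789 ± 74.8 (SD, n = 3 each). LACTB minus vector was -0.60 on the log2 scale (SE 0.12, limma adjusted p = 0.00020) and the gene was called in all 16 alternatives, with values from -0.77 to -0.40. GENCODE release 29 lists 4 pseudogenes of ALDH7A1, and the longest pseudogene found by an ALDH symbol has 1533 bases. The treatment of reads that match such pseudogenes is not stated.

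The folate enzymes were scarce. ALDH1L2 (chromosome 12, 105019784 to 105084577, minus strand), the mitochondrial form, stood at 101, 126 and 87.4 in the vector libraries and at 115, 139 and 141 in the LACTB libraries. The groups overlapped, with means of 105.0 ± 19.7 and 132 ± 14.4 (SD, n = 3 each). The log2 difference was 0.33 (SE 0.23, 95% interval -0.15 to 0.82, limma adjusted p = 0.23), and -0.16 with transcript length and GC removed (adjusted p = 0.48). The gene C12orf45, at 397 to 474 in every library, overlaps it on the opposite strand, and the strand setting is not stated. Reads from shared exons of the 2 genes could not be told apart in counts made without strand. Measured genes on the opposite strand also overlap ALDH3A2 (AC115989.1), ALDH3A1 (AC005722.3), ALDH1A2 (AQP9 and LIPC) and ALDH1A3 (AC015712.7 and AC015712.2). The part of such overlaps in the differences was not tested. ALDH1L1 (chromosome 3, 126103562 to 126197994, minus strand), the cytosolic form and astrocyte marker, stood at 0.0325, 4.33 and 2.13 in the vector libraries and at 1.72, 1.71 and 2.12 in the LACTB libraries. It was at or near 0 in both groups, and no fold is given.

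**Figure D2:**
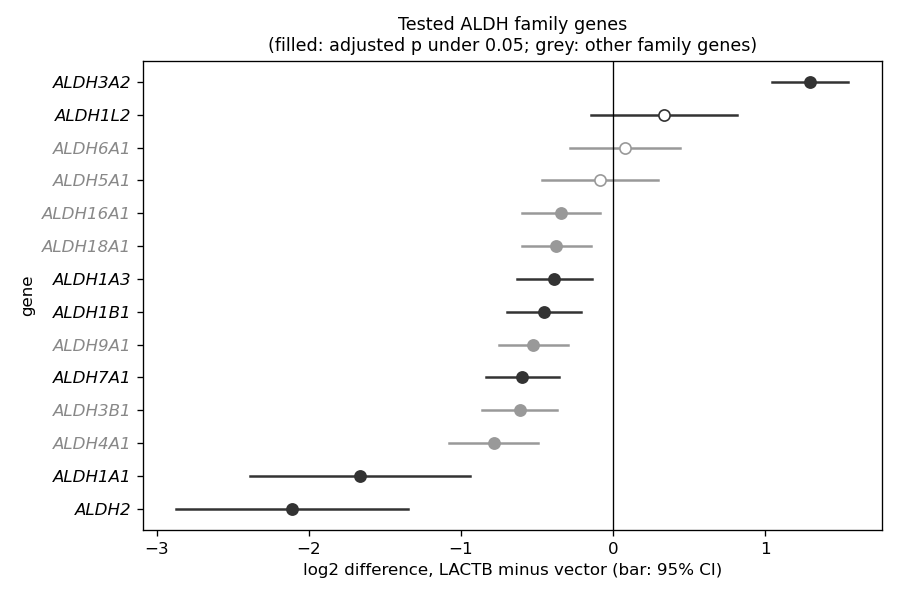
Points are log2 differences, LACTB minus vector, with 95% intervals as bars, for the 14 ALDH family genes tested, ordered by value on the y axis. Filled points passed an adjusted p of 0.05, black marks the 7 tested genes of the 10 and grey the other family genes. ALDH3A2 is the sole filled point to the right of 0, and ALDH2 and ALDH1A1 lie farthest to the left with the widest intervals.

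Levels were compared between genes per kilobase of the longest transcript in GENCODE release 29. In vector cells the order was ALDH7A1, ALDH1A3, ALDH1B1, ALDH3A2, ALDH1A1, ALDH1L2, ALDH2, ALDH3A1, ALDH1A2 and ALDH1L1. The ranges over libraries overlapped between ALDH7A1 and ALDH1A3, between ALDH2 and ALDH3A1 and between ALDH3A1 and ALDH1A2, and the other neighbours in this order lay apart. With LACTB the order was ALDH1A3, ALDH7A1, ALDH3A2, ALDH1B1, ALDH3A1, ALDH1L2, ALDH1A1, ALDH1A2, ALDH2 and ALDH1L1, and the ranges overlapped between ALDH3A1 and ALDH1L2 and between ALDH1A2 and ALDH2. ALDH3A2 thus passed ALDH1B1, at 336 ± 45.9 against 500.4 ± 18.1 normalized counts per kilobase in vector cells and 821 ± 12.5 against 365 ± 6.31 with LACTB (SD, n = 3).

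The make-up of the summed level does not depend on how whole libraries are scaled. ALDH7A1, ALDH1A3, ALDH1B1 and ALDH3A2 together made up 98.2% to 98.7% of the summed level per kilobase of the 10 genes in every library. With vector the share of ALDH3A2 was 8.09%, 7.75% and 7.00%, and with LACTB it was 22.4%, 22.4% and 21.4%. The share of ALDH7A1 was 45.3%, 35.9% and 39.5% in vector and 32.5%, 31.1% and 30.4% in LACTB libraries, again without overlap. The shares of a library add up to a fixed total, so a larger ALDH3A2 share lowers the sum of the others by construction. Whether the ALDH7A1 share differed apart from this was not tested. The share of ALDH1A3 overlapped between the groups, at 34.3%, 43.3% and 40.2% in vector and 33.4%, 35.6% and 37.2% in LACTB libraries. The summed level was 4408 ± 309 in vector and 3724 ± 142 normalized counts per kilobase in LACTB cells (SD, n = 3).

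**Figure D3:**
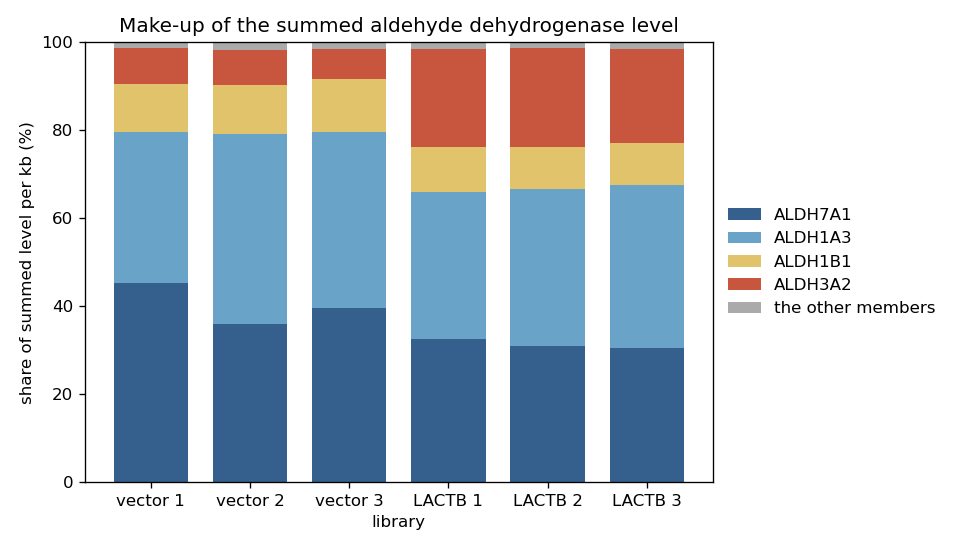
Each bar is 1 library, and its segments are shares in percent of the summed level per kilobase of the 10 genes. The ALDH3A2 segment, in red, takes 7.00% to 8.09% of the vector bars and 21.4% to 22.4% of the LACTB bars.

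The scaling of the libraries decided some calls. Of all calls, 52.7% were higher as deposited, 72.2% with equal column totals and 39.3% with median centring. Equal totals moved the median of all genes tested from 0.05 to 0.24. The directions of ALDH3A2, ALDH2, ALDH1A1, ALDH7A1, ALDH1B1 and ALDH1A3 were kept under median centring, quantile normalization, equal column totals and removal of length and GC. Under equal totals ALDH1A3 and ALDH1B1 lost their calls. That left 3 of the 7 lower and 1 higher, against 14.8% and 38.4% of all genes tested under that scaling. The 3 lower genes include ALDH2 and ALDH1A1, which were tested only through their vector libraries, so their presence already favoured a fall.

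**Figure D4:**
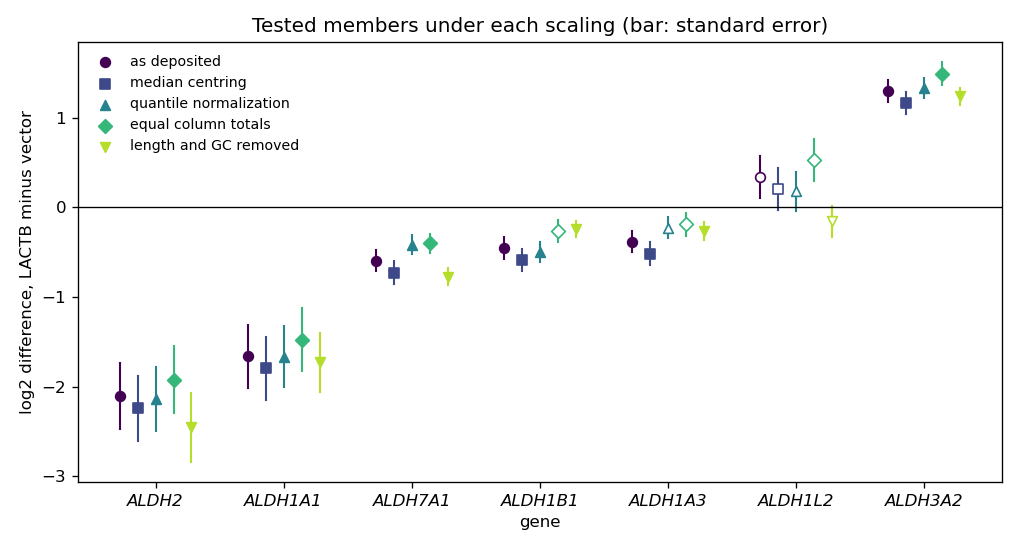
Points are log2 differences of the 7 tested genes, LACTB minus vector, under the values as deposited and 4 other scalings, with standard errors as bars and filled symbols for an adjusted p under 0.05. ALDH1L2 crosses 0 with length and GC removed (-0.16), and the other genes stay on one side of 0.

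The remaining ALDH genes were mostly lower as well. Of 9 further family members 7 were tested, 5 fell, 0 rose and 2 did not pass (median -0.37). ALDH4A1, a mitochondrial enzyme of proline breakdown, fell from 1142 ± 195 to 656 ± 16.0 (-0.79, limma adjusted p = 9.5e-05). ALDH3B1, a relative of ALDH3A2 that acts on lipid aldehydes, fell from 2092 ± 190 to 1364 ± 59.7 (-0.61, adjusted p = 0.00019). ALDH9A1, which makes a carnitine precursor, fell by 0.52, ALDH18A1, the first enzyme of proline synthesis, by 0.37 and ALDH16A1 by 0.34. ALDH18A1 lost its call with equal column totals (adjusted p = 0.12) and quantile normalization (adjusted p = 0.097). ALDH16A1 lost it with equal column totals (-0.15), with length and GC removed (-0.06), without trend and robust settings, and without vector library 3, LACTB library 2 or LACTB library 3. ALDH5A1, of GABA breakdown, differed by -0.09 (adjusted p = 0.72) and ALDH6A1, of valine breakdown, by 0.08 (adjusted p = 0.72). ALDH3B2 and ALDH8A1 were under the minimum, at means of at most 4.61. Over all 14 ALDH genes tested 10 fell and 1 rose (median -0.42), against 24.6% and 27.4% of all genes tested. With equal column totals 6 fell and 1 rose, against 14.8% and 38.4%. These falls include ALDH2 and ALDH1A1, which were tested only through their vector libraries.

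Genes of the retinoid pathway around the ALDH1A enzymes, receptors and retinoic acid targets included, went both ways. Of 28 listed genes 25 were matched and 19 tested, of which 2 rose, 8 fell and 9 did not pass (median -0.20). For this list and those below, the shares over all genes tested were 27.4% higher and 24.6% lower. RDH10, which makes retinal from retinol, rose from 347 ± 48.3 to 711 ± 97.7 (1.03, limma adjusted p = 2.0e-05). The other gene that rose was LRAT, which stores retinol as ester, by 0.81 (adjusted p = 0.012). It was singled out after its values were seen, and removal of length and GC ended the call (adjusted p = 0.094). TGM2, a transglutaminase known as a retinoic acid target, fell from 5275 ± 402 to 2131 ± 222 (-1.31, adjusted p = 8.7e-09). The receptor gene RARG fell from 4780 ± 672 to 3117 ± 130.0 (-0.61, adjusted p = 0.00021). With equal column totals 4 rose and 5 fell, and with length and GC removed 4 rose and 4 fell.

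Other enzymes that make or remove aldehydes were mixed too. Of 23 listed genes 16 were tested, of which 4 rose, 6 fell and 6 did not pass (median -0.14). AKR1C3, an aldo-keto reductase, rose from 1317 ± 360 to 2841 ± 218 (1.14, limma adjusted p = 1.8e-06) and AKR1C1 from 4137 ± 1078 to 6403 ± 190 (0.66, adjusted p = 0.00044, and 0.22 with adjusted p = 0.28 once length and GC were removed). AKR1C2, named after its values were seen, did not pass (means 1013 and 890, -0.16, adjusted p = 0.37). These AKR1C genes are close copies of each other, so their values are uncertain. AOX1, an aldehyde oxidase, rose from 24.8 ± 11.7 to 63.4 ± 11.1 (1.40, adjusted p = 0.0024). Its vector mean lay under the minimum level, so it was tested only through its LACTB libraries. The remaining gene that rose was ESD, an esterase of formaldehyde removal, by 0.35 (adjusted p = 0.029), and its name was chosen with the values known. The ESD call was lost with median centring, without trend and robust settings, and on leaving out vector library 2, vector library 3 or any LACTB library. MAOB, a monoamine oxidase that yields aldehydes from amines, fell from 262 ± 7.25 to 91.2 ± 16.2 (-1.53, adjusted p = 4.6e-06). AKR7A2, a reductase of succinic semialdehyde, fell from 4224 ± 693 to 2521 ± 149 (-0.73, adjusted p = 4.9e-05, and -0.23 with adjusted p = 0.059 once length and GC were removed). With equal column totals 5 rose and 2 fell.

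Around the folate enzymes, 11 of 12 listed genes were tested, 1 rose, 4 fell and 6 did not pass (median -0.04). SHMT2, which feeds mitochondrial folate from serine, fell from 20319 ± 1823 to 10112 ± 894 (-1.01, limma adjusted p = 3.8e-07). FPGS, which retains folates in the cell, fell by 0.62 and SHMT1, named after its values were seen, by 0.27. The FPGS call was lost with length and GC removed (-0.14) and the SHMT1 call in 11 of 16 alternatives. The count of falls was 2 with equal column totals, without vector library 2 and without any of the 3 LACTB libraries.

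Fatty aldehydes are the substrates of ALDH3A2. All 8 listed genes of pathways linked to them were tested, of which 1 rose, 2 fell and 5 did not pass (median 0.15). FAR1, which reduces fatty acyl-CoA for ether lipids, rose from 185 ± 7.18 to 317 ± 58.2 (0.76, limma adjusted p = 0.0021). SPHK1, a sphingosine kinase, fell from 4236 ± 547 to 2821 ± 294 (-0.58, adjusted p = 0.00038) and HACL1, of peroxisomal alpha-oxidation, fell by 0.49 (adjusted p = 0.0099). The SPHK1 call was lost with length and GC removed (-0.10), and the HACL1 call with equal column totals and without trend and robust settings. SGPL1, the lyase that releases a fatty aldehyde from sphingosine phosphate, stood at 1294 and 1417 (0.13, adjusted p = 0.36). With equal column totals 5 rose and 1 fell. Of 9 listed genes of lysine and choline breakdown, beside ALDH7A1, 4 were tested. AADAT, an aminoadipate aminotransferase, rose from 369 ± 64.3 to 568 ± 88.8 (0.62, adjusted p = 0.0044). GCDH, the glutaryl-CoA dehydrogenase, fell from 960 ± 18.5 to 772 ± 17.4 (-0.31, adjusted p = 0.044), a call lost with equal column totals, with no minimum level, with length and GC removed (0.11), with the replicate block, without vector library 3 and without any of the 3 LACTB libraries.

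**Figure D5:**
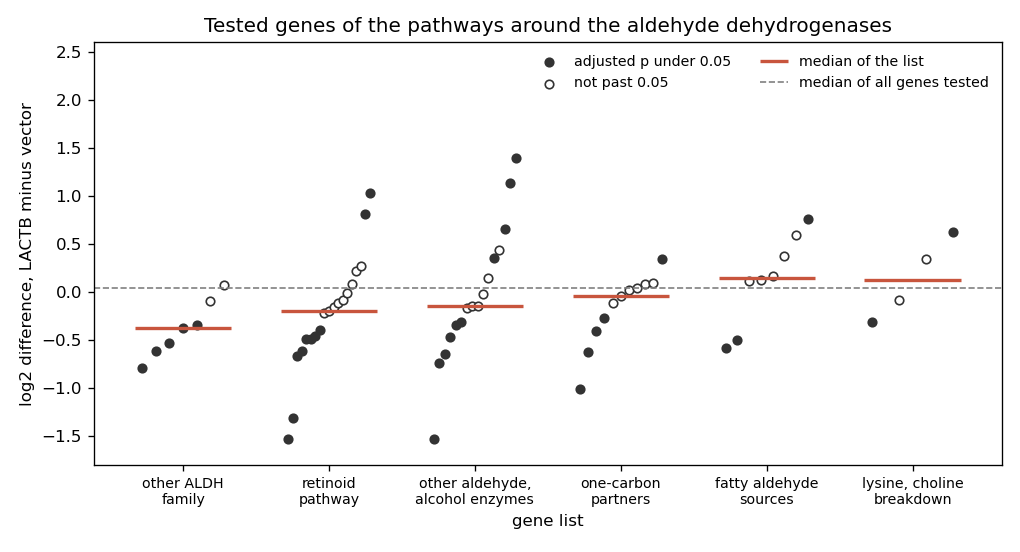
Each point is 1 tested gene, with its log2 difference, LACTB minus vector, on the y axis and its list on the x axis. Filled points passed an adjusted p of 0.05, red lines are list medians and the dashed line is the median of all genes tested (0.05). The list medians run from -0.37 for the other ALDH genes to 0.15 for the fatty aldehyde list, labelled as sources.

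The position of the genes was described by the tested genes within 1 Mb. Of all genes tested, 27.4% rose and 24.6% fell. Around ALDH1A2 8 of 9 neighbours rose and none fell (median 0.51), while ALDH1A2 itself was under the minimum level. Around ALDH1A1 none of 4 neighbours passed (median -0.11), and around ALDH2 3 of 13 rose and 5 fell (median 0.15). Around ALDH7A1 1 of 5 rose and 2 fell (median -0.24), around ALDH1B1 2 of 11 rose and 4 fell (median 0.09), and around ALDH1A3 4 of 12 rose and 3 fell (median 0.06). For ALDH1L1 4 of 12 rose and 4 fell (median -0.30), and for ALDH1L2 4 of 11 rose and 1 fell (median 0.26). For ALDH3A1 5 of 11 rose, ALDH3A2 among them, and 1 fell (median -0.03). The antisense gene AC015712.2 overlaps ALDH1A3 and stood at 52.3 to 103 in vector and 87.1 to 135 in LACTB libraries, far below ALDH1A3. It was among the neighbours called higher (0.79, limma adjusted p = 0.026), though its ranges overlapped.

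Shared sequence between the genes was short. Over the 45 pairs of the 10 genes, the longest identical run between protein-coding transcripts of GENCODE release 29 had a median of 15 bases and a maximum of 32. The longest run shared by the retinal dehydrogenases ALDH1A2 and ALDH1A3 had 24 bases and is shown as an example of how far the paralogs are identical.
Shared run of ALDH1A2 and ALDH1A3: ccatggaacttccccctgctgatg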

How the data were processed

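Per the labels' protocols, RNA came from a Trizol and chloroform extraction and library construction was by an NEB method. HISAT2 and hg38 are named in the submitters' processing notes. For the read counter, annotation, strand setting and normalization, nothing is stated in the sources used here. The deposited signal values are normalized read counts that are not whole numbers, so no count model was used, the number of reads behind them is unknown and no counting interval is given.

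From these, values below 1e-10 were set to 0, and 9 repeated symbols were reduced to their row of higher mean. The fit used limma 3.58.1 in R 4.3.3 with trend and robust settings on log2(value + 1), group as the only term, two-sided. The minimum was a mean of 1 CPM relative to the mean column total. The code was tested on simulated data. Lengths, positions and GC came from GENCODE release 29, available for 98.3% of tested genes. Of 89 listed symbols 83 were matched, and the rest were not analysed here.

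The 10 genes and the gene lists were chosen with earlier results of these data known. Named were LACTB, all 10 genes, the other ALDH genes, and from each other list the 4 called genes with the smallest adjusted p and any called at 2-fold or more. Some genes of the lists are counted but not reported here by name. The design foresaw counts or normalized values, and the latter was used. Alternatives were median centring, quantile normalization, equal column totals, no minimum, 5 CPM, pseudocounts of 0.1 and 1 CPM, no trend and robust settings, the replicate block, leaving out each library, and a spline (5 df) on length and GC removed from every library. Same-numbered libraries had correlations of deviations from their group means of 0.02, 0.18 and 0.003, so the numbers were not taken as pairs. Plots used Python 3.11.15 and matplotlib 3.10.9.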

Additional observations from a re-analysis of the deposited data

How the results depend on the processing

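Of 109 recomputed differences of the 7 tested genes, 102 kept direction and side of the threshold, 6 lost the call and 1 changed sign. ALDH1A3 lost its call with quantile normalization (-0.23), with equal column totals (-0.19) and without trend and robust settings (-0.39, limma adjusted p = 0.0505), and ranged from -0.46 to -0.28 when a library was left out. ALDH1B1 lost its call with equal column totals (-0.26), and ALDH1L2 changed sign with length and GC removed (-0.16). The cause was not tested. Called genes among the 10 numbered 6, and 4 to 7 under the alternatives, and those called lower 5, and 3 with equal column totals and at a minimum of 5 CPM, where ALDH2, ALDH1A1 and ALDH1L2 were no longer tested. All calls numbered 6721 and ranged from 5344 to 7341 when a library was left out. Under the replicate block, 6 of the 10 genes and 6879 of all genes were called, and of the 3 LACTB libraries only number 2 correlated best with the vector library of its own number. Beside the counts given with the lists, falls numbered 3 with equal column totals against 5 in the other ALDH genes. In the retinoid list 1 rose at 5 CPM against 2. In the folate list rises ranged from 0 to 3 against 1. In the fatty aldehyde list 1 fell without trend and robust settings and with length and GC removed against 2, and 2 rose without vector library 1, without LACTB library 1 and with length and GC removed against 1. In the lysine and choline list 2 rose with equal column totals and without vector library 1 against 1. Genes near 1 CPM, ALDH2 and ALDH1A1 among them, rest on the spread of low values at unknown depth.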
